A study of Homo sapiens with 4 samples.

Results

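The sites described here were the peak summits of Star-PAP HITS-CLIP that lay just downstream of protein-coding genes. A summit was taken when it was on an autosome, lay in no annotated gene, and fell 1 to 10000 bp past the 3′ end of a protein-coding gene in the direction of its transcription. Gene ends were those of the GENCODE release 44 gene records on hg19. Of 1031599 summits in the 3 Star-PAP libraries, 965423 were autosomal and 33869 met the rule. They numbered 9795 in control, 12928 in siStar-PAP and 11146 in siRBM10.

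Star-PAP was immunoprecipitated from UV-crosslinked HEK293 cells, a line derived from human embryonic kidney, and the associated RNA fragments were sequenced (HITS-CLIP). The siStar-PAP and siRBM10 libraries came from cells given siRNA against Star-PAP or RBM10, harvested 48 h after transfection and crosslinked at 400 mJ/cm2, and the same protocol is given for all 4 samples. The label of the third Star-PAP library names no siRNA, and it is called control here because the study used it as the control state. The fourth sample, an IgG pull-down, served as the reference for peak calling. Each condition was 1 library, so no test between conditions was possible. All intervals below are 95% intervals that cover counting error only. The extent of either depletion could not be checked from these lists. The lists give no read totals and no strand, so the depth was unknown and a summit past a gene end could come from RNA of either strand.

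Star-PAP is a nuclear non-canonical poly(A) polymerase that adds the poly(A) tail to selected mRNAs, and RBM10 is an RNA-binding protein that works with it on part of those mRNAs. At most genes, RNA polymerase II transcribes past the cleavage and polyadenylation site before it stops, and the RNA beyond the cut is normally degraded within the nucleus. Sequence downstream of an annotated gene end can therefore be transcribed as a readthrough tail, and it can also hold unannotated distal cleavage sites. The AAUAAA signal and its variants lie before a cleavage site, and U-rich or GU-rich elements lie after it. Star-PAP recognition has been linked to GC-rich sequence with an AUA element.

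The sites at which all 3 libraries placed a summit within 500 bp of a control summit, downstream of the same gene, were few. There were 208 such control summits, 2.12% of the control members (95% interval 1.86 to 2.43), at 205 genes. Without the condition on the gene, 223 control members (2.28%) had summits of both other libraries within 500 bp. Over all autosomal control summits this share was 1.58% (6054 of 382958), so it was small there too. The sequences of 4 of the 208 sites are shown because they were among those with the highest scores in the weakest of the 3 libraries. The score that accompanies each summit is −log10 of its MACS2 p-value, so a score of 2 corresponds to p 0.01. Each line holds 81 nucleotides of hg19 on the strand of the gene, 5′ to 3′, with the base of the control summit as a capital.
KRT15: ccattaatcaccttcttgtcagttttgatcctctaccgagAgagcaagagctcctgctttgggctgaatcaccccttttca
DAPK1: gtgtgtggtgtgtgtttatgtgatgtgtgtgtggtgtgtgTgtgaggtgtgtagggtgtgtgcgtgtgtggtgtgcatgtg
GPR35: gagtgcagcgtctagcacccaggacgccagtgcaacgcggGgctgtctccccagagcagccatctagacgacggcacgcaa
DESI2: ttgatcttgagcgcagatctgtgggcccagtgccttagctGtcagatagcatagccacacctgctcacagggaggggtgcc

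These 4 sites had scores between 3.02 and 5.77 in all 3 libraries. The site after KRT15, a basal epithelial keratin gene, lay at chr17:39663886-39663966 on the minus strand, 6071 bp past the gene end. The site after DAPK1, which encodes a calmodulin-regulated death-associated kinase, lay at chr9:90328002-90328082 on the plus strand, 4493 bp past the end. The site after GPR35, an orphan G protein-coupled receptor gene, lay at chr2:241581595-241581675 on the plus strand, 9059 bp past the end. The site after DESI2 lay at chr1:244872505-244872585 on the plus strand, 210 bp past the end, with scores of 5.09 in control, 4.26 in siStar-PAP and 3.02 in siRBM10. The sites after CRIPT, TGFA, AKR1E2 and LUZP2 had a lowest score of 2.92. The lowest score was at least 2 at 125 of the 208 sites and at least 3 at 6. The 4 printed sites did not share a base composition. G and T made up 91.4% of the DAPK1 sequence and 42.0 to 53.1% of the other sequences printed, and GC content ran from 46.9% at KRT15 to 65.4% at GPR35. None of the 4 sequences held AATAAA or ATTAAA on the strand of the gene.

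Of 19229 autosomal protein-coding genes, 13541 had at least some sequence outside all annotated genes within 10000 bp of their end, 85.1 Mb in total (GC content 44.4%). The density of summits in it was 115 per Mb in control (95% interval 113 to 117), 152 in siStar-PAP (149 to 155) and 131 in siRBM10 (129 to 134). In intergenic sequence more than 10000 bp from any protein-coding gene, called distal here (838 Mb, GC content 39.5%), the densities were 154, 84.4 and 79.8 per Mb. The libraries therefore stood on opposite sides of the distal density. The downstream density was 0.747 of the distal density in control (0.732 to 0.762), 1.80 times it in siStar-PAP (1.77 to 1.84) and 1.64 times it in siRBM10 (1.61 to 1.67). The downstream sequence made up 3.17% of the autosomal bases and held 2.56% of the control summits, 4.22% of the siStar-PAP summits and 4.04% of the siRBM10 summits. The control value turned around when weak summits were left out, as described with the scores below.

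Over summits of every score, the downstream number was higher in both depleted libraries than in control, whereas the total number was lower. siStar-PAP had 32.0% more downstream summits than control (28.6 to 35.5), while its number over all autosomal summits was 0.800 of the control number. siRBM10 had 13.8% more downstream summits (10.7 to 16.9), and its overall number was 0.721 of the control number. These values depended on the weak control summits. At p at most 0.01 the downstream number was 2.28 times the control number in siStar-PAP and 2.21 times in siRBM10. Without the commonest score of each library it was 2.34 and 2.0 times. All autosomal summits of p at most 0.01 numbered 128606 in control, 257933 in siStar-PAP and 249075 in siRBM10. At that threshold the totals were therefore also higher than in control. Over every score, the difference from control was larger on the upstream side, where siStar-PAP had 62.7% more and siRBM10 41.4% more. It had the opposite sign in distal sequence, where their numbers were 0.547 and 0.518 of the control number. At p at most 0.01 the distal numbers were instead higher than in control, with 38800 in control, 63120 in siStar-PAP and 62922 in siRBM10. Part of the downstream sequence, 18.3 Mb, also lies within 10000 bp before the start of another gene. In that shared sequence the densities were 82.8, 189 and 162 per Mb, and in sequence that was only downstream they were 124, 142 and 123 per Mb. Without the shared sequence the siRBM10 number was 0.988 of the control number (0.958 to 1.02). In sequence downstream of 2 converging genes the densities were 91.0, 191 and 157 per Mb.

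Within the 10000 bp after gene ends, the distance profile changed by little in siStar-PAP and siRBM10 and was lower near the gene end in control. In control the density was 92.2 per Mb in the first 500 bp, 108 in the next 500 bp and between 118 and 130 per Mb in every step beyond 3000 bp. In siStar-PAP it was 161 per Mb in the first 500 bp and 137 per Mb in the last 500 bp, with a range of 130 to 166 over the 20 steps. In siRBM10 it ranged from 111 to 144 per Mb. The first 1000 bp had 0.806 of the density of the last 1000 bp of the window in control (0.737 to 0.883), 1.15 times that density in siStar-PAP (1.06 to 1.24) and 1.07 times in siRBM10 (0.982 to 1.16). The siStar-PAP excess was absent among summits of p at most 0.01, where the ratio was 1.0 (0.915 to 1.09). Among gene ends with no other annotated gene in the whole window, the intervals of this ratio held 1 in all 3 libraries, with values of 0.925, 1.05 and 0.927. Inside the genes, the last 500 bp before the end had 80.8 summits per Mb in control, 191 in siStar-PAP and 176 in siRBM10, so that the step from gene to downstream sequence was upward in control and downward after both depletions.

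**Figure D1:**
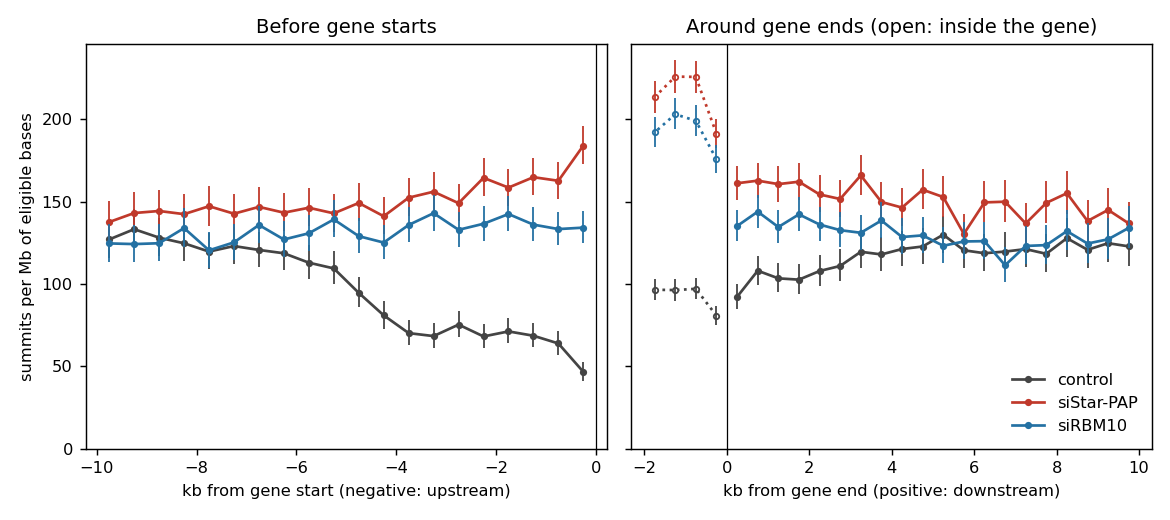
Summits per Mb of eligible sequence in 500-bp steps, in the 10 kb before gene starts (left) and around gene ends (right, with open symbols for the last 2 kb of the gene itself), for 1 library per condition; bars are 95% Poisson intervals. Control is below both depleted libraries near gene starts and gene ends and meets siRBM10 farther away.

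The upstream side had a different shape in control. The control density was 46.7 per Mb in the 500 bp before gene starts and 63.9 to 75.4 per Mb in each step from 501 to 4000 bp. It was 81 and 94.6 per Mb in the next 2 steps, 109 per Mb at 5001 to 5500 bp and 127 per Mb in the last step. Over the first 4000 bp the upstream density was 0.545 of that beyond 5000 bp (0.520 to 0.572), against 0.874 (0.838 to 0.912) downstream. The upstream ratio was 0.564 at isolated gene starts. The limits of 4000 and 5000 bp were not among the planned comparisons and bracket the rise of the control upstream profile, which favours a low upstream ratio. In siStar-PAP the upstream density was 184 per Mb in the first 500 bp and 138 per Mb in the last, and in siRBM10 it was 134 and 125 per Mb. The siStar-PAP excess near gene starts was absent among summits of p at most 0.01. There the upstream density in the first and the last 1000 bp was 117 and 115 per Mb in siStar-PAP. It was 92.8 and 112 per Mb in siRBM10 and 31.3 and 56.9 per Mb in control. Over the whole window, the downstream density was 1.23 times the upstream density in control (1.20 to 1.27). In siStar-PAP the ratio was 1.0 (0.976 to 1.02) and in siRBM10 0.991 (0.966 to 1.02). Sequence in both windows was counted on both sides of these ratios.

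Over summits of every score, GC content moved with their density in opposite directions in control and in the depleted libraries. Sequence was placed in bands by the GC content of its 1000-bp tile. Downstream of gene ends, the control density fell from 181 per Mb where GC was below 36% to 66.4 per Mb where it was 52% or more. The siStar-PAP density rose from 53.6 to 281 per Mb over the same bands, and the siRBM10 density rose from 37.2 to 199.7 per Mb. Distal sequence showed the same directions, from 178 to 97.3 per Mb in control, from 39.2 to 263 in siStar-PAP and from 27.5 to 179 in siRBM10. Within bands, the siStar-PAP density was 1.07 to 1.37 times the distal density, and the siRBM10 density 1.11 to 1.35 times. The control density was 1.01 times the distal density in the band below 36% (0.969 to 1.06) and 0.682 to 0.878 of it in the other bands. After standardisation for GC, the downstream to distal ratio was 0.850 in control, 1.22 in siStar-PAP and 1.16 in siRBM10. The part of GC content in amplification, mapping or peak calling was not tested. No bands were made without the weak control summits. Around members with a score of 5 or more, GC content was 51.1% in control, 55.3% in siStar-PAP and 45.7% in siRBM10.

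**Figure D2:**
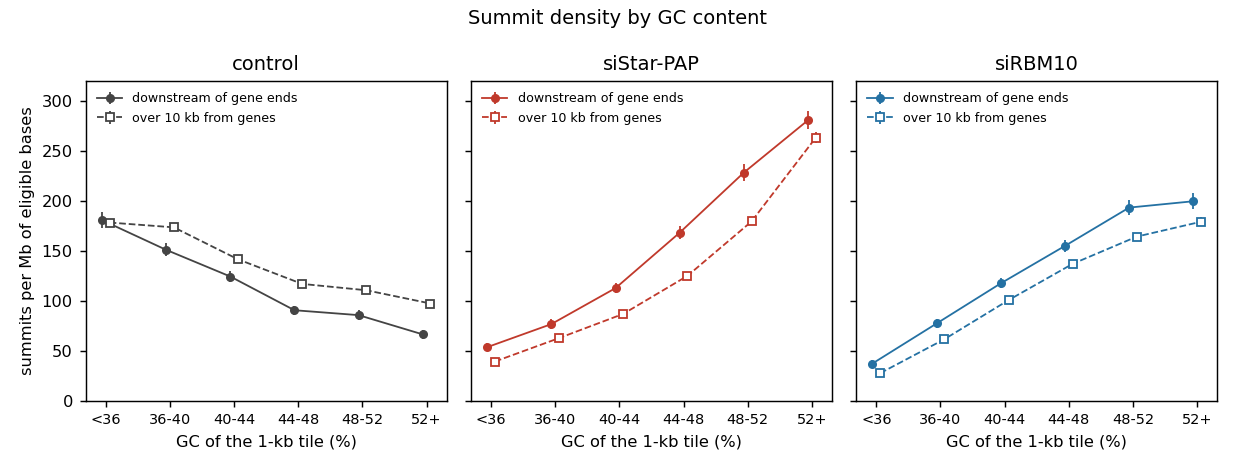
Summits of every score per Mb in 6 bands of GC content (percent, 1-kb tiles), downstream of gene ends (filled) and in intergenic sequence over 10 kb from protein-coding genes (open); 1 library per panel, bars are 95% Poisson intervals. The control lines fall and the lines of both depleted libraries rise with GC content, in both kinds of sequence.

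The scores of the downstream summits were low. In control, 50.3% of them (4925 of 9795) had one identical score of 1.33, the commonest value of that list, against 63.1% of all autosomal control summits. The commonest score was 2.92 in siStar-PAP, held by 11.9% of its members, and 3.25 in siRBM10, held by 12.5%. Over all autosomal summits of these libraries the shares were 22.1% and 22.2%. A score of at least 5 was reached by 149 control members (1.52%), 131 siStar-PAP members (1.01%) and 437 siRBM10 members (3.92%). Over all autosomal summits the shares were 0.832%, 1.01% and 5.65%. The control ratio of downstream to distal density depended on the score. It was 0.566 (0.550 to 0.582) for scores below 1.5 and 1.17 (1.04 to 1.31) for scores of 1.5 to 2. It was 1.02 (0.979 to 1.06) for scores of 2 to 3. At scores of 3 to 5 it was 1.41 (1.33 to 1.5), and at scores of 5 or more 1.59 (1.33 to 1.89). For all control summits of p at most 0.01 it was 1.12 (1.09 to 1.16), and without the commonest score it was 1.13 (1.10 to 1.17). The siRBM10 ratio ran the other way, from 3.55 (2.97 to 4.22) at scores below 1.5 to 0.954 (0.863 to 1.05) at scores of 5 or more. In siStar-PAP the ratio was lowest at scores of 2 to 3, the class that holds its commonest score, at 1.49 (1.45 to 1.52).

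**Figure D3:**
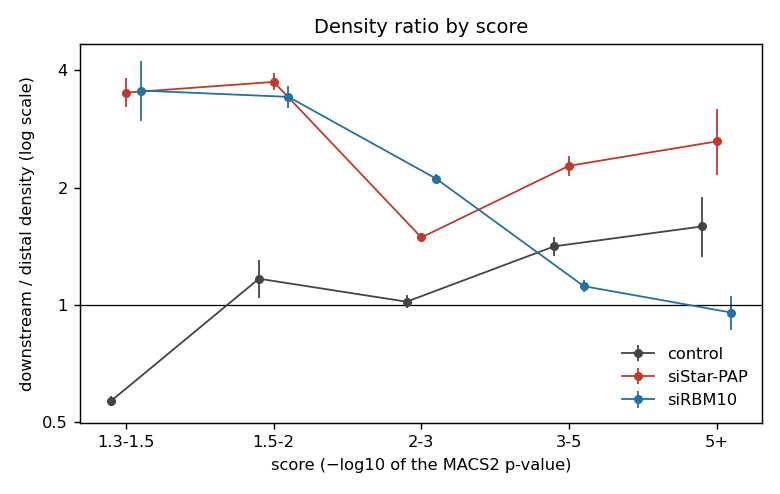
Ratio of the downstream to the distal density of summits (log scale) in 5 classes of the peak score (−log10 of the p-value), with 95% intervals, 1 library per condition. Control lies below 1 in the lowest class, and its interval is above 1 at scores of 1.5 to 2 and of 3 or more. The siRBM10 ratio falls from 3.55 in the lowest class to 0.954 in the highest.

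The control ratio of downstream to distal density was below 1 on 21 of the 22 autosomes, with a range of 0.627 to 1.01. It was above 1 on all 22 autosomes in siStar-PAP, from 1.33 to 1.96, and in siRBM10, from 1.18 to 1.90. The number of downstream summits relative to control differed widely between chromosomes. siStar-PAP had more than control on 16 chromosomes and fewer on 6, and siRBM10 had more on 13 and fewer on 9. On chromosome 22, where the downstream sequence has a GC content of 49.7%, the number was 3.20 times the control number in siStar-PAP and 2.69 times in siRBM10. On chromosome 19 (GC 48.3%) the ratios were 2.89 and 2.40. On chromosome 4 (GC 41.2%) they were 0.515 and 0.480, and on chromosome 13 (GC 42.2%) 0.538 and 0.465. The 5 chromosomes with the highest siStar-PAP ratios, 16, 17, 19, 20 and 22, had the most GC-rich downstream sequence, from 46.7 to 49.7%. At lower GC content the ratios were mixed, with 1.32 on chromosome 6 (GC 42.0%) in siStar-PAP. The downstream to distal ratio was 0.813 in control and 1.33 in siStar-PAP on chromosome 22, and 0.889 and 1.57 on chromosome 4. These pairs were alike, so distal summits differed between these chromosomes in the same direction. The spread between chromosomes was therefore not particular to gene ends.

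**Figure D4:**
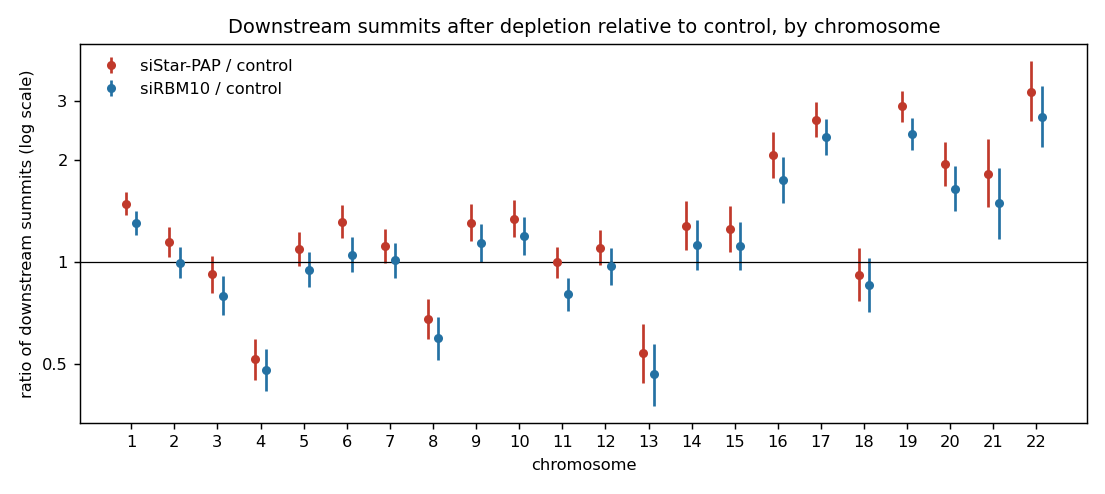
Number of downstream summits after depletion divided by the number in control (log scale) on each autosome, with 95% intervals, for siStar-PAP and siRBM10, 1 library each. The ratios run from 0.465 on chromosome 13 to 3.20 on chromosome 22, and the siStar-PAP ratio is above the siRBM10 ratio on each chromosome; both are taken to the same control library.

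At least 1 downstream summit was present at 5672 genes in control (41.9% of the 13541), 7134 in siStar-PAP (52.7%) and 6669 in siRBM10 (49.3%). All 3 libraries had one at 2425 genes (17.9%), and none had one at 3293 (24.3%). These numbers depend on the eligible length, which was under 1000 bases at 1956 of the 13541 genes. A summit in both depleted libraries and not in control was present at 2226 genes (16.4%), and a summit in control alone at 1096 (8.09%). At least 2 summits were present at 2598 genes in control, 3400 in siStar-PAP and 2846 in siRBM10, and these genes held 68.6%, 71.1% and 65.7% of the members. At least 5 were present at 95, 213 and 116 genes, and the largest number at any gene was 8 in each library. At 4952 genes the whole window was eligible, with every base outside annotated genes and counted for that gene end as the nearest. Of these, 1579 (31.9%) had a summit in all 3 libraries and 199 (4.02%) in none. The variance of their number per gene was 1.20 times its mean in control, 1.35 times in siStar-PAP and 1.24 times in siRBM10. A ratio of 1 is that of a Poisson count. Neighbouring summits of one gene were spaced by a median of 2114 bp in control, 1923 bp in siStar-PAP and 2019 bp in siRBM10. Spacings of at most 500 bp made up 0.970%, 4.35% and 6.10%, and the smallest was 253, 237 and 186 bp. Peaks were called with a fragment size of 500 bp, which limits how close neighbouring summits of a library can lie.

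The genes with the most control summits had hardly any in the depleted libraries, a difference that the choice of these genes favours. TMEM225, a transmembrane protein gene (chromosome 11, 123753627 to 123756377, minus strand), had 8 control summits between 222 and 8814 bp past its end, with scores of 1.33 or 2.28. It had 1 summit in siStar-PAP, at 3181 bp with a score of 2.92, and none in siRBM10. MEGF9, which encodes a membrane protein with EGF-like domains, had 7 control summits, 1 in siStar-PAP and 0 in siRBM10. LCE2B, a late cornified envelope gene, FCRL1, an Fc receptor-like gene of B cells, and CNST, which encodes the connexin-trafficking protein consortin, had 6 control summits each and 0 or 1 in the other libraries. Most of these summits had the commonest control score of 1.33. At least 6 control summits were present at 22 genes, and ties were broken by chromosome and position.

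The genes with the most siStar-PAP summits come next, and their choice likewise favours lower numbers in the other libraries. TOMM20, which encodes a receptor of the mitochondrial outer membrane import machinery (chromosome 1, 235272656 to 235292152, minus strand), had 8 siStar-PAP summits, no control summit and 1 siRBM10 summit. Its siStar-PAP summits lay 185, 1217, 2027, 3770, 6477, 7316, 8116 and 9413 bp past the end. The scores of the nearest ones, 6.05 and 4.06, were the highest of the 8, and those of the others were at most 2.30. DNAI2, an axonemal dynein intermediate chain gene, had 8 siStar-PAP summits and 1 in each other library. ZNF536, a zinc finger gene, also had 8, with 1 in control and 3 in siRBM10. Its strongest, with a score of 5.88, lay 8431 bp past the end. PTPRF, a receptor tyrosine phosphatase gene, had 7 in siStar-PAP, 4 in siRBM10 and 0 in control. It was taken from ties by position, as 26 genes had at least 7 siStar-PAP summits.

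In siRBM10, 5 genes had 8 summits each, and their choice again favours lower numbers in the other libraries. IGF2BP1, which encodes an mRNA-binding protein (chromosome 17, 47074747 to 47133507, plus strand), had 8 in siRBM10, 2 in siStar-PAP and 1 in control. The single control summit, 3625 bp past the end with a score of 5.65, had a siRBM10 summit near it at 3604 bp. TLK2, a chromatin-linked kinase gene, had 8 in siRBM10, 4 in siStar-PAP and 0 in control. POP4, which encodes a subunit of RNase P, had 8, 6 and 1 in the same order. AP5S1, an adaptor complex subunit gene, had 8, 2 and 1, and SRC, the tyrosine kinase gene, had 8, 4 and 4. The 4 control summits of SRC lay between 6403 and 9745 bp, whereas its siRBM10 summits began at 2264 bp.

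In control the highest scores downstream of genes included those at MB (21.8, 4815 bp past the myoglobin gene), SH2D4B (20.7, at 9631 bp), CCDC63 (18.3, at 719 bp) and PTH1R (17.0, 4052 bp past the parathyroid hormone receptor gene). At MB the other libraries had summits close by, at 4833 bp in siStar-PAP with a score of 2.05 and at 4856 bp in siRBM10 with a score of 2.38. In siStar-PAP a score of 10.7 was shared by summits after ASNS, the asparagine synthetase gene, NDC80, a kinetochore gene, and ANKRD27, at 3303, 449 and 949 bp. No control member lay downstream of ASNS, and the control summits of NDC80 and ANKRD27 were at 4 and 253 bp. In siRBM10 the highest were 9.45 after LMX1A, a homeobox gene, at 9595 bp and 9.14 after DMRTC2 at 1370 bp.

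Genes named by the study showed no single direction. Of 49, 42 had eligible downstream sequence, and 21 of these had a summit in control, 26 in siStar-PAP and 24 in siRBM10. Their densities were 130 per Mb in control (91.9 to 178), 150 in siStar-PAP (109 to 202) and 116 in siRBM10 (80.5 to 162), and each interval held the density over all genes. VEGFA, the angiogenic growth factor gene, had 1 control summit at 1710 bp, 5 siStar-PAP summits from 96 to 9920 bp and 2 siRBM10 summits. BRCA1, the DNA repair gene, had 0, 4 and 2. Among Star-PAP targets of the oxidative stress response, HMOX1 (heme oxygenase) had 1 control summit at 2632 bp with a score of 3.76, none in siStar-PAP and 1 in siRBM10 at 44 bp with a score of 4.56. NQO1, a quinone reductase gene with 1164 eligible bases, had 1 control summit at 469 bp and none in the depleted libraries. GCLC, which encodes the catalytic subunit of glutamate-cysteine ligase and which the study used as a non-target of Star-PAP, had 3, 0 and 1. RGS4, a regulator of G protein signalling, had 4, 2 and 0, and RTN1, a reticulon gene, had 3, 0 and 1. AGTR1, the angiotensin II receptor gene, had 3, 3 and 1, and CST4, a salivary cystatin gene, had 4, 2 and 2. IGF2, the insulin-like growth factor gene, had 0, 1 and 2.

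Olfactory receptor genes, which are expressed mainly in the nasal epithelium, had 182 control summits per Mb (165 to 200) against 115 over all genes. They had 66.0 per Mb (56.2 to 77.0) in siStar-PAP against 152 over all genes and 49.6 (41.1 to 59.3) in siRBM10 against 131. A control summit lay downstream of 216 of the 300 olfactory receptor genes with eligible sequence, a siStar-PAP summit of 117 and a siRBM10 summit of 97. Cytosolic ribosomal protein genes, which are transcribed at high levels in growing cells, had 97.2 per Mb in control (66.0 to 138), 201 in siStar-PAP (155 to 256) and 154 in siRBM10 (114 to 203), from 64 genes. Replication-dependent histone genes, whose mRNAs end without a poly(A) tail, had 55.5 (27.7 to 99.3), 141 (93.9 to 204) and 95.8 (57.7 to 150.0) per Mb, with 11, 28 and 19 summits. C2H2 zinc finger genes named ZNF had 132 (117 to 148), 176 (159 to 195) and 138 (122 to 154). The 14 cleavage and polyadenylation factor genes with eligible sequence had 9, 10 and 12 summits, too few to set them apart from all genes. The part of GC content in these differences between groups was not tested.

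Longer genes had more control summits downstream of their ends. Genes were ranked by length and split into 4 groups of equal size. In control the density was 105 per Mb in the group of shortest genes (up to 9879 bp; 100 to 109) and 129 per Mb in the group of longest genes (from 72674 bp; 124 to 133). In siStar-PAP it was 153 per Mb in the group of shortest genes, 173 in the next and 128 in the group of longest genes, and in siRBM10 it was 131, 147 and 115. A summit in the last 1000 bp of the gene went with a summit in the first 1000 bp after it. In control, 13.1% of genes with a summit in the last 1000 bp had one in the first 1000 bp after the end (11.2 to 15.3), against 9.23% of the other genes (8.69 to 9.80). The shares were 17.4% and 13.8% in siStar-PAP and 15.5% and 11.9% in siRBM10. Such genes can also differ in eligible length and GC content, whose part was not tested.

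Most downstream summits had no counterpart in another library. Of the control members, 85.8% had no siStar-PAP summit within 500 bp (85.1 to 86.4), against 89.3% of all autosomal control summits, and 89.1% had no siRBM10 summit (88.5 to 89.7), against 91.2%. Of the siStar-PAP members, 89.1% had no control summit, against 86.4% of all, and 82.3% had no siRBM10 summit, against 83.6%. Of the siRBM10 members, 90.2% had no control summit, against 87.7% of all, and 79.5% had no siStar-PAP summit, against 81.8%. These shares lie near the background of each pair of libraries and also move with the density of the second library, which differs downstream of genes. Control members with a high score had a counterpart more often. A siStar-PAP summit lay within 500 bp of 40.9% of control members with a score of 5 or more (33.4 to 49.0), against 8.47% (7.73 to 9.27) at scores below 1.5. For siRBM10 summits the shares were 26.8% (20.4 to 34.5) and 6.82% (6.16 to 7.55). Over all autosomal control summits with a score of 5 or more the shares were 37.1% and 27.1%, so the dependence on score was not particular to gene ends.

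Summits of different libraries lay close together more often than farther apart in some pairs. Within 100 bp of control members the siStar-PAP density was 194 per Mb (175 to 214), and at 1901 to 2000 bp it was 123 per Mb (108 to 139). The same density of siRBM10 summits was 124 per Mb (109 to 141) within 100 bp and 118 per Mb (103 to 135) at the far end. Around siStar-PAP members the siRBM10 density was 222 per Mb (204 to 241) within 100 bp and 176 (160 to 193) at the far end. Some summits were at the identical base, 57 between control members and siStar-PAP (0.582% of the control members) and 22 between control members and siRBM10 (0.225%). Without these, the siStar-PAP density from 1 to 100 bp was 165 per Mb (147 to 184) and the siRBM10 density 113 per Mb (98.4 to 129). Around distal control summits the siStar-PAP density also peaked, at 116 per Mb within 100 bp against 73.2 per Mb at 901 to 1000 bp. The siRBM10 density around distal control summits was 88.0 per Mb (84.4 to 91.7) within 100 bp and 68.4 per Mb (65.3 to 71.7) at 901 to 1000 bp.

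**Figure D5:**
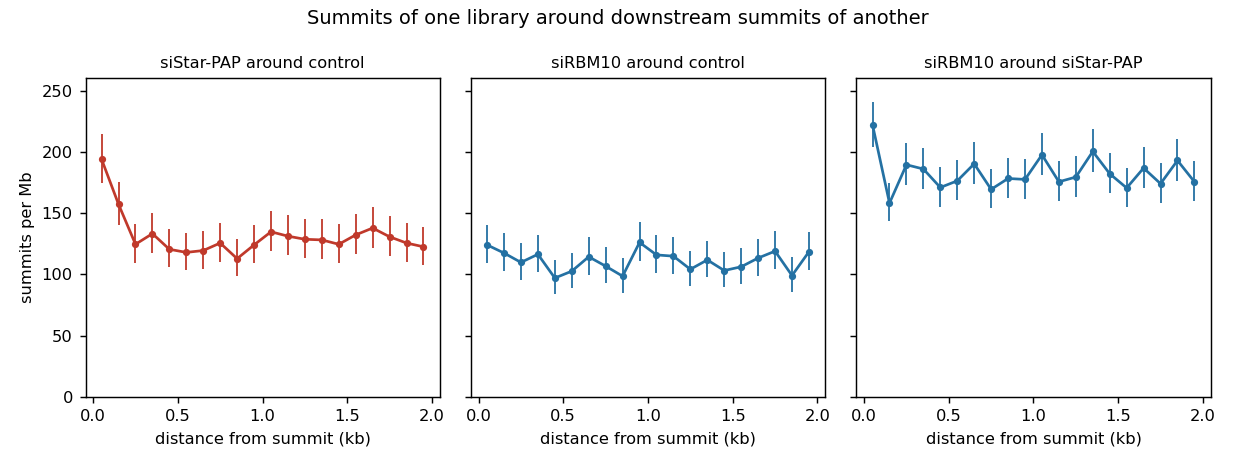
Density of summits of a second library (per Mb, 100-bp steps) by distance from the downstream summits of a first library, with 95% Poisson intervals, for 3 pairs of libraries. The siStar-PAP density around control summits is 194 per Mb within 100 bp and flat beyond 300 bp, and the intervals of siRBM10 around control overlap between the nearest and the farthest step.

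In windows of 100 nucleotides around the summits, GC content was 43.5% in control, 50.2% in siStar-PAP and 49.2% in siRBM10, against 44.3% at every 200th base of the downstream sequence. In all 3 libraries the summit was more GC-rich than its surroundings. At 500 bp before the summit GC content was 41% in control, 47.1% in siStar-PAP and 46.6% in siRBM10. Among members with a score of 5 or more GC content was 51.1% in control and 55.3% in siStar-PAP, higher than over all members, and 45.7% in siRBM10, lower than over all members. The canonical polyadenylation signal AATAAA was present, on the strand of the gene, in 8.22% of the control windows (7.69 to 8.78), 4.53% of the siStar-PAP windows (4.18 to 4.90) and 4.11% of the siRBM10 windows (3.76 to 4.49). It was present in 7.52% of windows over all downstream sequence. At 500 bp before and after the same summits the shares were higher than at the summits, 9.59% and 9.26% in control, 6.92% and 5.95% in siStar-PAP and 6.47% and 6.30% in siRBM10. On the opposite strand the shares were 8.48%, 4.50% and 4.54%, and the intervals of the strands overlapped in each library. The variant ATTAAA was present in 4.83%, 2.86% and 2.75%, against 4.96% over all downstream sequence. ATA was present in 65.8%, 49.6% and 52.6%, against 65.0%. At 500 bp before the summits ATA was present in 73.4%, 58.3% and 59.6%, and at 500 bp after them in 72.4%, 56.7% and 58.5%. TGTA, which the cleavage factor CFIm binds as UGUA, was present in 36%, 30.7% and 31.2%, against 33.9%. Matches to the shorter motifs can overlap those to the longer ones.

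Runs of 6 T were present in 12.3% of the control windows (11.7 to 13.0), 8.88% of the siStar-PAP windows (8.40 to 9.38) and 8.71% of the siRBM10 windows (8.20 to 9.25), against 10.5% over all downstream sequence. Runs of 6 G were present in 0.919%, 1.65% and 1.5%, against 1.31%. Because the DAPK1 sequence was rich in alternating T and G, an unbroken run of 6 TG repeats was also counted. This search was chosen after sequences at these sites had been seen. The DAPK1 sequence itself did not hold such a run on either strand. The run was present in 0.327% of the control windows (0.232 to 0.461) and 0.250% of all downstream windows. Among the 149 control members with a score of 5 or more it was present in 4, or 2.68% (1.05 to 6.70), on the strand of the gene and in 5 on the opposite strand. In siStar-PAP none of the 131 members with such scores had it on the strand of the gene, with an upper Wilson limit of 2.85%. On the opposite strand 1 of them had it. In siRBM10 1 of 437 had it on the strand of the gene and 2 on the opposite strand.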

How the data were processed

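Star-PAP HITS-CLIP was done by the authors in HEK293 cells, with 1 library each for control, siStar-PAP and siRBM10 and 1 IgG library as reference. The authors filtered and trimmed the reads (Cutadapt 1.14), collapsed duplicates, mapped them to hg19 with BWA 0.7.12, and called peaks in each library against IgG with MACS2 at p 0.05. The processing notes also list FastQC 0.72. The lists deposited by the authors hold 1-bp summits, each with a score that is −log10 of its p-value. They hold no strand, width or tag count, so the depth is unknown and intervals cover only the counting of summits.

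Gene records of GENCODE release 44 lifted to hg19 were used. A base was eligible when it was determined and lay in no annotated gene, and a base within 10000 bp of several gene ends went to the nearest. Densities are summits per Mb of eligible bases with exact Poisson intervals at 95%. Ratios have conditional binomial intervals and shares have Wilson intervals. Sequence was read from GRCh37. Python 3.11.15, numpy 2.4.6, pandas 2.3.3, scipy 1.17.1 and pysam 0.24.0 were used, and the counting was tested on simulated data. No test between conditions was made. The genes named are the 5 with the most summits and the 5 with the highest scores in each library, the 10 best sites of all 3 libraries, and the study-named genes with a summit, of which examples are given. Ties were broken by chromosome and position. The members and gene lists were chosen with earlier results of these data known. Some items that the rule names are not reported here.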

Additional observations from a re-analysis of the deposited data

Results flagged for a closer look

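The ratio of downstream to distal density lay on opposite sides of 1 in control (0.747) and in siStar-PAP (1.80), and likewise in control (0.747) and in siRBM10 (1.64). The density in the first 1000 bp after gene ends relative to the last 1000 bp of the window also had opposite directions in control (0.806) and siStar-PAP (1.15). With 1 library per condition these differences were not tested.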

How the results depend on the processing

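Of 83 values under alternatives, 27 stayed within their counting interval, 52 moved beyond it, and 4 reversed. A reversal was counted only for ratios whose reported interval excluded 1. The siRBM10 ratio of the first to the last 1000 bp, 1.07 as reported and 0.927 at isolated gene ends, was therefore counted as moved. In what follows, libraries are in the order control, siStar-PAP, siRBM10. The downstream to distal ratio (0.747, 1.80, 1.64) was 1.12, 1.58 and 1.53 at p at most 0.01 and 1.13, 2.28 and 2.01 without the commonest score, so the control value reversed in both; by construction both settings leave out the control summits of score 1.33. It was 0.834, 1.65 and 1.53 at isolated gene ends, 0.804, 1.68 and 1.54 without bases in both windows, 0.711, 1.87 and 1.70 in a window of 5000 bp, and 0.850, 1.22 and 1.16 after GC standardisation. Without chromosome 19 it was 1.73 in siStar-PAP and 1.59 in siRBM10. The control downstream to upstream ratio (1.23) was 1.17 at p at most 0.01, 1.15 without the commonest score, 1.3 at isolated genes, 1.29 without bases in both windows and 1.56 within 5000 bp; without the commonest score it was 0.968 in siStar-PAP and 0.954 in siRBM10. The ratio of the first to the last 1000 bp of the window was 0.711 in control and 1.0 in siStar-PAP at p at most 0.01, 0.725 in control without the commonest score, and 0.925, 1.05 and 0.927 at isolated gene ends.

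The number of downstream summits relative to control was, for siStar-PAP (1.32) and siRBM10 (1.14), 2.28 and 2.21 at p at most 0.01, 2.34 and 2.0 without the commonest score, 1.44 and 1.24 within 5000 bp, and 1.24 and 1.07 without chromosome 19. At isolated gene ends it was 1.08 and 0.95, and without bases in both windows 1.14 and 0.988, so the siRBM10 value was counted as reversed in both. The interval of 0.988 held 1 (0.958 to 1.02), and that of 0.95 did not (0.918 to 0.982). The cause was not tested. The share of control members without a siStar-PAP or siRBM10 summit nearby (85.8% and 89.1%) was 81.7% and 86.3% at p at most 0.01, 83.3% and 87.6% without the commonest score, 86.5% and 89.8% without bases in both windows, 96.1% and 97.5% when 100 bp was required, and 99.4% and 99.8% when the same position was required. Without chromosome 19 the siStar-PAP share was 86.4%. No paired analysis was possible because each condition was 1 library, and no replicate could be left out.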
